A study of Mus musculus with 12 samples.

Results

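The 10 genes described here encode the enzymes that make, salvage and phosphorylate NAD: Nampt, Nmrk1, Naprt, Nmnat1, Nmnat2, Nmnat3, Nadsyn1, Nadk, Nadk2 and Nnt. They were chosen by symbol and hold 11 of the 20614 rows of the expression table, because Nnt has 2 rows. RNA was sequenced from astrocytes of male mice at 12 to 14 months of age in 12 libraries. Of these, 3 came from Cd38+/+, 3 from Cd38+/- and 6 from Cd38-/- mice, which lack 0, 1 or both working copies of the gene for CD38, an ectoenzyme that consumes NAD and releases nicotinamide. The question put to these genes is whether the routes that supply NAD differ in expression when a major consumer is missing, and which route is most expressed in these cells.

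All mice were bred from C57BL/6J, and the mutant allele came from the global B6.129P2 Cd38 knockout line, so CD38 was missing from every cell type and through development. The tissue labelled midbrain was dissected as striatum, thalamus and substantia nigra. Endothelial cells and myelin were depleted with beads, microglia were captured with anti-CD11b, and astrocytes were then selected with anti-ACSA-2 beads. The labels call the samples of a genotype replicates and do not say whether 1 library was 1 animal, so p-values below measure the spread between these libraries. Values are TPM, relative transcript abundances that are scaled by transcript length and sum to 1000000 in each library. TPM keeps no read depth, so no interval for counting error is given.

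NAD is built from several precursors. NAMPT recycles nicotinamide, the product left by CD38, into nicotinamide mononucleotide, while NMRK1 makes the same mononucleotide from nicotinamide riboside. NAPRT starts the separate route from nicotinic acid, which needs NADSYN1 for its last step, and QPRT brings in precursor made de novo from tryptophan. The NMNAT enzymes complete the dinucleotide in all routes, each in its own compartment. NADK in the cytosol and NADK2 in mitochondria phosphorylate NAD to NADP, and NNT, in the inner mitochondrial membrane, uses the proton gradient to pass reducing equivalents from NADH to NADP.

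The libraries were checked first. Cd38 itself had a TPM of 148.64, 120.04 and 104.88 in Cd38+/+ libraries 1 to 3. It had 90.80, 90.70 and 90.36 in Cd38+/- libraries 1 to 3, and between 8.54 and 21.86 with a median of 15.7 in the 6 Cd38-/- libraries. The 3 genotypes did not overlap, so no library went against its label. This check is weaker for Cd38+/-, where Cd38 was 0.74-fold of Cd38+/+ and not called by the limma test described below (q = 0.226). In that comparison 22.5% of all genes tested did not overlap, and 6.94% of all genes tested were lower in Cd38+/- without overlap. Cd38 lies on chromosome 5, and none of the 10 genes lies there. The 9 astrocyte markers checked, among them Gja1, Slc1a3 and Aqp4, summed to between 6877 and 11878 TPM. The 7 microglial markers summed to at most 42.31 TPM and the 9 neuronal markers to at most 124.45 TPM. Other lists were high: 4 erythroid markers reached 34648 TPM, 7 oligodendrocyte markers 17799 TPM, 4 ependymal markers 3828 TPM and 3 choroid plexus markers 6905 TPM. The Cd38+/+ libraries stood apart from the rest. They listed 13160 to 13516 genes above 0, against 16160 to 16327 in Cd38+/- and 15920 to 17906 in Cd38-/- libraries. Both comparisons with Cd38+/+ rest on these same 3 libraries, and they cannot be told apart from the genotype.

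Levels were ordered first. TPM is scaled by transcript length, so genes of one library can be set side by side. Whether remaining trends with length or GC content shape this order was not tested. The 2 NAD kinases and Naprt were the most abundant of the 10 genes, and the Nmnat genes and Nampt were among the least. Mean TPM over the 12 libraries was 127 ± 20.7 (SD, n = 12) for Nadk2, 103 ± 15.4 for Nadk and 85.0 ± 17.9 for Naprt. A wide gap separated these from Nmrk1 at 24.1 ± 4.07 and from Nnt, both rows summed, at 23.6 ± 7.57. Then came Nadsyn1 at 15.8 ± 5.12, Nmnat1 at 15.5 ± 6.51, Nampt at 14.0 ± 2.46, Nmnat3 at 9.20 ± 4.34 and Nmnat2 at 8.50 ± 3.31. The first 3 genes together held most of the summed TPM of the 10, with shares of 29.8% for Nadk2, 24.2% for Nadk and 20.0% for Naprt. Among the 11845 genes with a mean TPM above 5 in some genotype, Nadk2 stood at percentile 87.3, Nampt at 25.6 and Nmnat2 at 13.7.

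**Figure D1:**
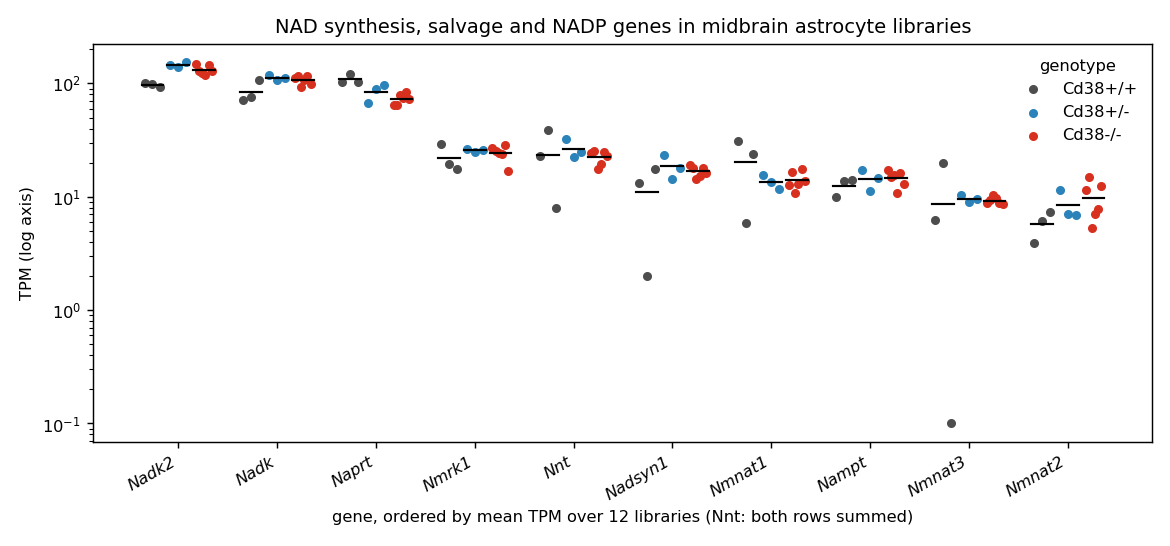
TPM on a log axis of the 10 genes in every library, in the order of their mean over 12 libraries, with Nnt as the sum of its 2 rows; points are libraries, colours are genotypes and bars are genotype means. Nadk2, Nadk and Naprt lie between 64.54 and 154.44 TPM in all libraries, and the Cd38+/+ points of Nmnat3, Nadsyn1 and Nmnat1 are the most scattered.

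Neighbours in this order were compared within each library by a two-sided exact sign-flip permutation test of log2(TPM + 1), with Benjamini-Hochberg adjustment over the 9 neighbouring pairs. The order and its pairs were taken from the same libraries. These p-values thus describe how steady the order was across them and are no independent test of it. Nadk2 exceeded Nadk in 11 of 12 libraries, by 0.30 ± 0.19 on the log2 scale (SD, adjusted exact p = 0.00732). Naprt exceeded Nmrk1 in 12 of 12 libraries, by 1.77 ± 0.43 (adjusted exact p = 0.00439). Nampt exceeded Nmnat3 in 11 of 12 libraries, by 0.75 ± 1.02 (adjusted exact p = 0.00732). The other 6 neighbouring pairs did not differ beyond their spread across libraries, with adjusted exact p from 0.0604 for Nnt and Nadsyn1 to 1.00 for 3 pairs. Nadsyn1, Nmnat1 and Nampt therefore have no settled order among themselves. The head of the list differed between genotype means, and this was not tested. Naprt ranked 1 of 10 in Cd38+/+ and 3 of 10 in both mutant genotypes, where Nadk2 ranked 1. Single Cd38+/+ libraries were less uniform. Naprt had 103.59 TPM against 101.27 for Nadk2 in replicate 1, and 120.51 against 99.11 in replicate 2. In replicate 3 Nadk led with 106.84 against 102.74 for Naprt.

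The entry enzymes of the 4 routes kept one order in every library. Naprt, which converts nicotinic acid, was highest, followed by Nmrk1 (nicotinamide riboside), Nampt (nicotinamide) and Qprt (tryptophan), in 12 of 12 libraries. All 6 pairs gave an adjusted exact p of 0.000488, the smallest value that 12 libraries allow. By mean TPM, Naprt was 3.52 times as high as Nmrk1 and 6.05 times as high as Nampt, and Nmrk1 was 1.72 times as high as Nampt. The longest transcript of Naprt has 1898 bases and 59.4% GC, and that of Nampt 4527 bases and 40.3% GC. Naprt also shares 277 of its 2344 exonic bases with the overlapping gene Eef1d. The part of length, GC content and this overlap in these gaps was not tested. Qprt was listed at 0 in 2 Cd38+/+ libraries and at 2.13 in the other one, and lay between 3.08 and 7.24 in the mutant libraries.

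Of the summed TPM of these 4 entry enzymes, Naprt held 75.4 ± 2.83% (SD, n = 3) in Cd38+/+, 65.5 ± 5.76% (n = 3) in Cd38+/- and 62.8 ± 4.11% (n = 6) in Cd38-/- libraries. Nampt held 8.73 ± 1.71%, 11.4 ± 3.38% and 12.5 ± 1.98%, and Nmrk1 held 15.3 ± 4.43%, 20.2 ± 2.54% and 20.8 ± 2.84% in the same order. A transcript share gives no measure of flux through a route.

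**Figure D2:**
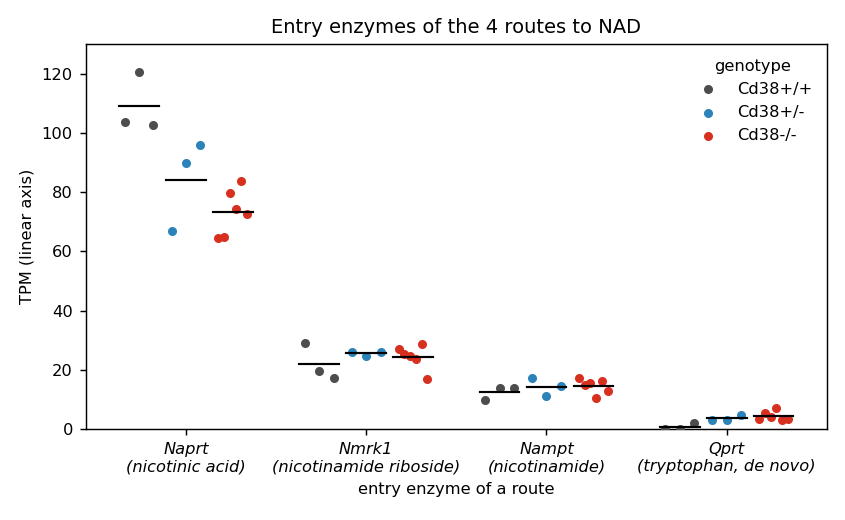
TPM on a linear axis of the entry enzymes of the 4 routes to NAD, by library and genotype; points are libraries and bars are genotype means. Naprt lies between 64.54 and 120.51 TPM, above Nmrk1 (16.90 to 29.19), Nampt (9.87 to 17.29) and Qprt (0 to 7.24), and its Cd38+/+ points lie above all others.

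Genotypes were then compared with limma on log2(TPM + 1) over every gene whose mean TPM exceeded 5 in either genotype of the pair. A gene was called where its Storey q-value was below 0.05 and it changed by 1.2-fold or more. Differences below are on the log2(TPM + 1) scale, which understates the change of low genes. The 11 rows passed the filter in all 3 comparisons. Nnt ENSMUSG00000025453 had means of 6.97 TPM in Cd38+/+, 5.27 in Cd38+/- and 4.05 in Cd38-/-. It thus passed both comparisons of Cd38-/- only through the other genotype. A row kept in this way is bound to have the lower mean in Cd38-/-, so its differences there are description only. In Cd38-/- against Cd38+/+, 2 of the 11 rows were called, Nadk2 as higher and Naprt as lower, where 8.28% of the 11722 genes tested were called (6.42% higher and 1.86% lower). In Cd38+/- against Cd38+/+ limma called 0 of the 11 rows, and 0% of 11763 genes. At an unadjusted p under 0.05 there were 1 of 11 rows (Nadk2) and 13.5% of genes, and the exact permutation test cannot go below p = 0.1 there. Between Cd38-/- and Cd38+/- limma called 0 of the 11 rows and 0.0346% of 11563 genes (0.0173% higher and 0.0173% lower). At an unadjusted p under 0.05 by limma there were 0 of the 11 rows and 11.2% of genes. The smallest exact permutation p among these rows was 0.119, for Nadk2.

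The 2 comparisons with Cd38+/+ share those libraries, so they are given side by side. The median difference of the 11 rows was 0.43 in Cd38+/- and 0.32 in Cd38-/- libraries, where the median of all genes tested was 0.18 and 0.15. In each, 8 rows were higher and 3 lower by sign alone. Those lower in Cd38-/- include Nnt ENSMUSG00000025453, which passed the filter there only through its Cd38+/+ mean. The libraries did not overlap for 2 of the 11 rows in each, Nadk2 (higher) and Naprt (lower), where this held for 22.5% of genes in Cd38+/- and 11.8% in Cd38-/-. Between the mutant genotypes it held for 0 of the 11 rows and 5.73% of genes (2.85% higher and 2.88% lower). In the comparison of the mutant genotypes the median of the 11 rows was -0.09 and that of all genes -0.02. Beyond the 2 called genes, only Nadk passed an unadjusted p of 0.05 in Cd38-/- against Cd38+/+, which makes 3 of 11 rows where 23.6% of all genes passed it.

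**Figure D3:**
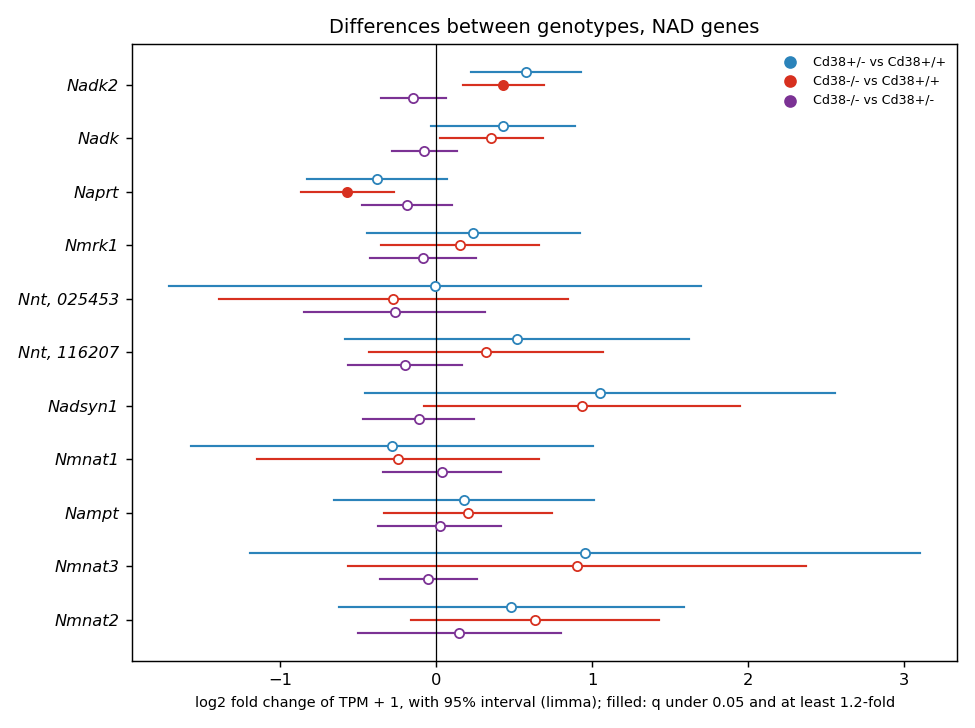
Difference in log2(TPM + 1) with its 95% limma interval for the 11 rows in the 3 comparisons, with filled points for called genes. Filled points are Nadk2 at 0.43 and Naprt at -0.57 in Cd38-/- against Cd38+/+, and the intervals of Nmnat3, Nnt and Nadsyn1 against Cd38+/+ are the widest.

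Naprt, the entry enzyme for nicotinic acid (ENSMUSG00000022574, GRCm38 chr15:75890956-75894481, minus strand), was lower in Cd38-/- astrocyte libraries. Its TPM was 103.59, 120.51 and 102.74 in Cd38+/+ libraries 1 to 3, and 66.91, 89.78 and 96.08 in Cd38+/- libraries 1 to 3. In the 6 Cd38-/- libraries it ran from 64.54 to 83.86 with a median of 73.5. Every mutant library lay below every Cd38+/+ library, while the mutant genotypes overlapped. The fall in Cd38-/- was 0.67-fold, a log2 difference of -0.57 with an SE of 0.14 (95% interval -0.86 to -0.27, limma q = 0.0276, two-sided exact permutation p = 0.0119, n = 6 and 3). In Cd38+/- the difference was -0.38 with an SE of 0.20 (q = 0.268), and the exact test cannot go below p = 0.1 with 3 libraries against 3. The genes whose libraries did not overlap made up 3.62% (lower, Cd38-/-) and 6.94% (lower, Cd38+/-) of those tested. Between the mutant genotypes the difference was -0.19 (95% interval -0.48 to 0.10, q = 0.450).

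Several measured facts stand beside this fall. The call was kept in 10 of 13 other settings and in 5 of 9 settings that leave out a library. It was lost without Cd38-/- replicate 1, 2, 5 or 6 (q = 0.0648, 0.0753, 0.0590 and 0.0629) and, among other settings, with library quality weights (q = 0.368), though the difference stayed between -0.69 and -0.49 under all alternatives tried. Summed erythroid markers were 7726 to 34648 TPM in Cd38+/+, 3211 to 6429 in Cd38+/- and 3791 to 15323 in Cd38-/- libraries, and their part in the result was not tested. Naprt also shares 277 of its 2344 exonic bases (11.8%) with Eef1d, a subunit of an elongation factor complex, on the same strand, and reads from that stretch cannot be assigned by position. Eef1d differed by -0.15 with an SE of 0.13 in Cd38-/- (q = 0.273). As the libraries are bulk RNA, fewer cells with a transcript and less transcript per cell cannot be told apart for any gene here.

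Nampt, the rate-limiting enzyme of nicotinamide salvage, showed no detectable difference. Its TPM was 9.87, 13.79 and 14.06 in Cd38+/+ and 17.29, 11.26 and 14.65 in Cd38+/- libraries 1 to 3. The Cd38-/- libraries ran from 10.72 to 17.22 with a median of 15.3. All 3 genotypes overlapped. The difference from Cd38+/+ was 0.20 in Cd38-/- (95% interval -0.34 to 0.74, q = 0.365) and 0.18 in Cd38+/- (95% interval -0.66 to 1.01, q = 0.531), so changes of up to these limits are not excluded. The sign of both turned under quantile normalization and after a length and GC trend was removed.

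Within a library, the log2 ratio of Nampt to Naprt was -3.03 ± 0.24 (SD, n = 3) in Cd38+/+, -2.47 ± 0.52 in Cd38+/- and -2.26 ± 0.29 (n = 6) in Cd38-/-. Its difference of 0.77 between Cd38-/- and Cd38+/+ left no overlap of libraries (two-sided exact permutation p = 0.0119, the smallest possible). It did not pass adjustment over the 18 ratio tests (adjusted exact p = 0.214). The other 17 tests, on this ratio and 5 others, gave adjusted exact p of 0.903 or more.

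Nmrk1, the nicotinamide riboside kinase, had 29.19, 19.65 and 17.47 TPM in Cd38+/+ libraries 1 to 3, and between 24.68 and 26.24 in the 3 Cd38+/- libraries. The Cd38-/- libraries lay between 16.90 and 28.81 with a median of 25.0. The genotypes overlapped. The difference from Cd38+/+ was 0.15 in Cd38-/- (95% interval -0.36 to 0.66, q = 0.408) and 0.24 in Cd38+/- (95% interval -0.44 to 0.92, q = 0.463).

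Nadsyn1, the glutamine-dependent enzyme that ends the nicotinic acid and de novo routes, had 13.14, 2.02 and 17.70 TPM in Cd38+/+ libraries 1 to 3. Cd38+/- libraries 1 to 3 had 23.54, 14.30 and 17.79, and Cd38-/- libraries 14.37 to 18.92 with a median of 17.1. A single Cd38+/+ library, replicate 2, was lowest by far. The difference was 0.94 with an SE of 0.46 in Cd38-/- (q = 0.139) and 1.05 with an SE of 0.66 in Cd38+/- (q = 0.316). In Cd38-/- it fell to 0.13 without Cd38+/+ replicate 2, and was 1.44 and called without Cd38+/+ replicate 3 (q = 0.0250). Leaving out replicate 3 called 3119 genes in all, against 970 with every library kept.

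The NMNAT enzymes complete NAD in the nucleus (Nmnat1), at the Golgi and in axons (Nmnat2) and in mitochondria (Nmnat3). Nmnat1 had 30.82, 5.82 and 24.05 TPM in Cd38+/+ libraries 1 to 3, 15.63, 13.41 and 11.60 in Cd38+/-, and 10.75 to 17.42 with a median of 13.4 in Cd38-/-. Nmnat3 had 6.21, 19.75 and 0.10 in Cd38+/+, 10.36, 8.92 and 9.57 in Cd38+/-, and 8.60 to 10.38 with a median of 9.05 in Cd38-/-. Both genes were thus widely scattered in Cd38+/+ and close together in the mutants. Nmnat3 had an SD of 2.15 on the log2 scale in Cd38+/+, against 0.10 in each mutant genotype.

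Neither gene was called. The difference in Cd38-/- was -0.24 for Nmnat1 (95% interval -1.15 to 0.66, q = 0.426) and 0.90 for Nmnat3 (95% interval -0.57 to 2.37, q = 0.249). These values turned on single Cd38+/+ libraries. Nmnat3 was 1.86 and called without Cd38+/+ replicate 2 (q = 0.0318) and -0.26 without Cd38+/+ replicate 3. Nmnat1 was -0.93 and called without Cd38+/+ replicate 2 (q = 0.0211) and 0.18 without Cd38+/+ replicate 1. Leaving out Cd38+/+ replicate 2 called 1931 genes in all, against 970 with every library kept. Wide scatter of the Cd38+/+ libraries was general and not particular to these genes. The SD was largest in Cd38+/+ for 7 of 11 rows (63.6%) and for 77.7% of the 11845 genes with a mean TPM above 5 in a genotype.

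Nmnat2, best known for keeping axons intact, had 3.95, 6.10 and 7.34 TPM in Cd38+/+ and 11.58, 7.05 and 6.90 in Cd38+/- libraries 1 to 3. Cd38-/- libraries ran from 5.27 to 14.97 with a median of 9.64. The difference was 0.63 with an SE of 0.36 in Cd38-/- (q = 0.178) and 0.48 with an SE of 0.49 in Cd38+/- (q = 0.422), with overlap in both. Summed neuronal markers were 65.04 to 72.35 TPM in Cd38+/+, 38.75 to 60.71 in Cd38+/- and 46.56 to 124.45 in Cd38-/- libraries. Single markers differed in direction: Th was at 0 in all 3 Cd38+/+ libraries, while Rbfox3, Tubb3 and Stmn2 had their highest TPM there (11.18, 17.41 and 19.41). Their part in the Nmnat2 values was not tested.

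Within the Nmnat family, Nmnat1 was the highest in 2 of 3 Cd38+/+, 3 of 3 Cd38+/- and 6 of 6 Cd38-/- libraries, and Nmnat3 led in the remaining one. Nmnat1 held 56.7 ± 33.2% (SD, n = 3, 18.4 to 76.4%) of the family's TPM in Cd38+/+, 42.9 ± 2.42% (n = 3) in Cd38+/- and 42.4 ± 4.67% (n = 6) in Cd38-/- libraries. For the whole family, TPM summed to 34.7 ± 5.43 in Cd38+/+ and to 31.7 ± 5.15 and 33.1 ± 4.89 in Cd38+/- and Cd38-/- libraries, which overlapped.

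Nadk2, the mitochondrial NAD kinase (ENSMUSG00000022253, GRCm38 chr15:9071260-9110891, plus strand), was higher in Cd38-/- libraries. Its TPM was 101.27, 99.11 and 92.33 in Cd38+/+ libraries 1 to 3 and 144.85, 139.01 and 154.44 in Cd38+/- libraries 1 to 3. The 6 Cd38-/- libraries ran from 119.36 to 148.66 with a median of 129. Every mutant library lay above every Cd38+/+ library, and the mutant genotypes overlapped. The rise in Cd38-/- was 1.35-fold, a log2 difference of 0.43 with an SE of 0.12 (95% interval 0.17 to 0.69, limma q = 0.0384, two-sided exact permutation p = 0.0119, n = 6 and 3). In Cd38+/- the estimate was 0.58 with an SE of 0.16 (95% interval 0.22 to 0.93), which did not pass (q = 0.176, exact permutation p = 0.1, the smallest possible). Genes with no overlap made up 8.21% (higher, Cd38-/-) and 15.5% (higher, Cd38+/-) of those tested. Between the mutant genotypes the difference was -0.15 (95% interval -0.35 to 0.06, q = 0.432). Summed astrocyte markers were 6877 to 9084 TPM in Cd38+/+, 11281 to 11878 in Cd38+/- and 7727 to 10572 in Cd38-/- libraries, and their part in the Nadk2 values was not tested.

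The Nadk2 call depended on the processing. It was kept in 6 of 13 other settings and in 4 of 9 settings that leave out a library. With median-ratio scaling the difference was 0.31 (q = 0.0751). After a length and GC trend was removed within each library it was 0.09 (q = 0.331), where that of Naprt stayed at -0.56 (q = 0.0304). In Cd38+/- the Nadk2 difference went from 0.58 to 0.23 (q = 0.460) with that trend removed. The longest transcript of Nadk2 has 4136 bases and 43.6% GC, and that of Naprt has 1898 bases and 59.4% GC.

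**Figure D4:**
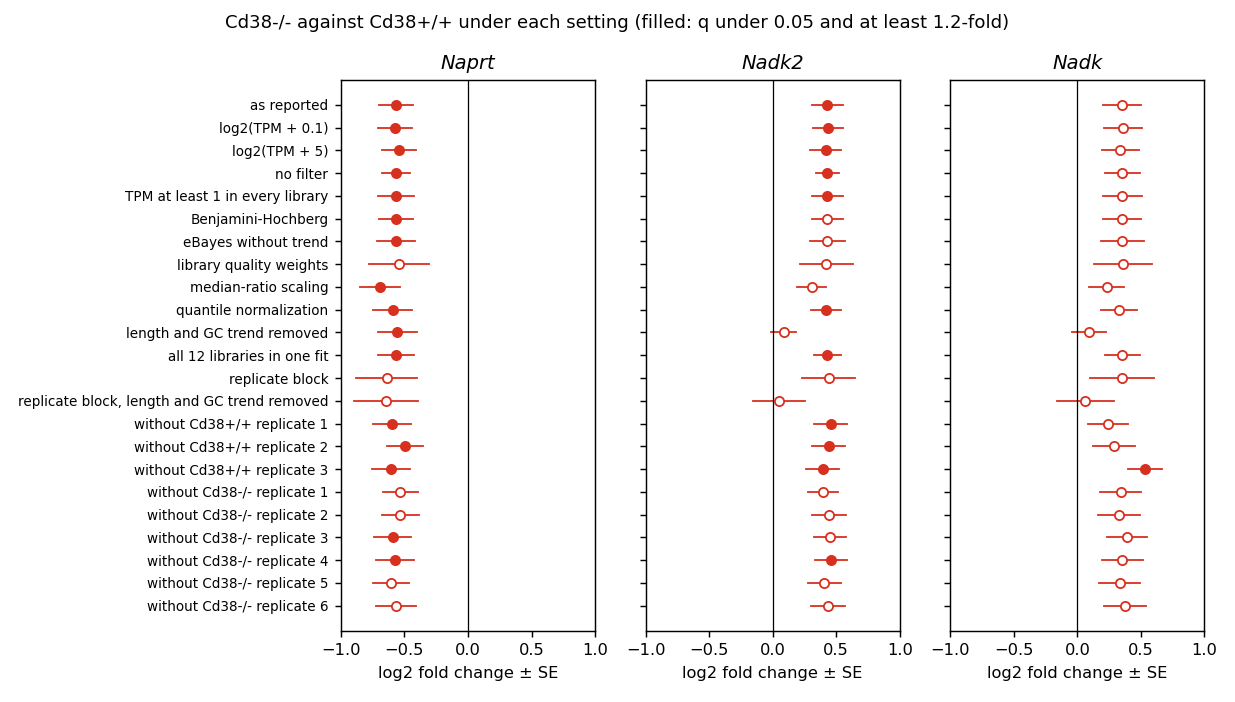
Difference in log2(TPM + 1) ± SE between Cd38-/- and Cd38+/+ for Naprt, Nadk2 and Nadk under each setting, with filled points for called genes. Naprt stays between -0.69 and -0.49. Where a length and GC trend is removed, Nadk2 drops to 0.09 and 0.05, and Nadk drops to 0.09 and 0.06. Nadk is filled once.

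Nadk, the cytosolic kinase, had 71.04, 76.09 and 106.84 TPM in Cd38+/+ and 119.24, 106.79 and 111.66 in Cd38+/- libraries 1 to 3. The Cd38-/- libraries ran from 93.47 to 115.93 with a median of 109. Cd38+/+ replicate 3 lay among the mutants and the other Cd38+/+ libraries below them. The difference was 0.35 with an SE of 0.15 in Cd38-/- (limma q = 0.103, two-sided exact permutation p = 0.0476) and 0.43 with an SE of 0.20 in Cd38+/- (q = 0.246). Without Cd38+/+ replicate 3 the Cd38-/- difference was 0.53 and called (q = 0.0115). In that setting 3119 genes were called in all, against 970 with every library kept. With median-ratio scaling the Cd38-/- difference of Nadk was 0.23 (q = 0.191). After a length and GC trend was removed it was 0.09 (q = 0.377). The log2 ratio of Nadk2 to Nadk was 0.22 ± 0.38 (SD, n = 3) in Cd38+/+, 0.37 ± 0.09 in Cd38+/- and 0.30 ± 0.12 (n = 6) in Cd38-/-. It did not differ between genotypes beyond this spread.

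Nnt has 2 annotated rows at one place on chromosome 13, minus strand, in GENCODE vM21. ENSMUSG00000025453 spans chr13:119335448-119408997 and ENSMUSG00000116207 spans chr13:119335528-119408952. The single transcript of the second row, with 3339 bases in 17 exons, lies wholly within a transcript of the first row with 3464 bases. Another transcript of the first row has 3122 bases in 15 exons. The sequences across the 2 junctions that tell these transcripts apart are shown because reads inside the contained transcript fit both rows. The first 30 bases are the end of exon 7 (chr13:119381676-119381705), and capitals mark the start of the exon that follows, exon 8 (chr13:119374745-119374774) or exon 10 (chr13:119370116-119370145).
Nnt, exons 7 and 8 joined: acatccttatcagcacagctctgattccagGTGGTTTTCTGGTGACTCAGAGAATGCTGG
Nnt, exons 7 and 10 joined: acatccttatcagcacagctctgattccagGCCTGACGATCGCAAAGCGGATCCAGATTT

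The first junction is in 3 Nnt transcripts and the second in 1, and of these 2 junctions only the skipped form belongs to a single row. C57BL/6J, the strain of the reference genome, is known to carry a deletion of several exons in Nnt, and the allele carried by each mouse is not given in the labels. ENSMUSG00000116207 had 18.40, 24.20 and 6.36 TPM in Cd38+/+, 26.92, 19.37 and 17.61 in Cd38+/-, and 14.54 to 21.22 in Cd38-/- libraries. ENSMUSG00000025453 had 4.34, 15.01 and 1.55 TPM in Cd38+/+, 5.51, 2.95 and 7.35 in Cd38+/-, and 3.10 to 5.37 in Cd38-/- libraries. Both rows were highest in Cd38+/+ replicate 2 and lowest in replicate 3 among the Cd38+/+ libraries. With both rows summed, Nnt differed by 0.18 in Cd38-/- (95% interval -0.64 to 1.00, q = 0.453) and by 0.42 in Cd38+/- (95% interval -0.75 to 1.59, q = 0.459). Neither row was called in any comparison.

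A further 31 genes of NAD metabolism were counted around these enzymes. Of these, 17 passed the TPM filter against Cd38+/+ and 16 between the mutants. Limma called 0 of the 17 in Cd38-/- (1 at an unadjusted p under 0.05), 0 of the 17 in Cd38+/- (0 at an unadjusted p under 0.05) and 0 of the 16 between the mutants (1 at an unadjusted p under 0.05). Over all genes, 8.28%, 0% and 0.0346% were called in these comparisons, and 23.6%, 13.5% and 11.2% had an unadjusted p under 0.05. The median difference of the list was 0.06 in Cd38-/- and 0.22 in Cd38+/-, against 0.15 and 0.18 for all genes tested. The de novo route was the least expressed group. Only Afmid, the kynurenine formamidase, passed the filter among its 9 genes. It passed through its Cd38+/+ mean of 7.10 TPM alone, against 3.54 in Cd38+/- and 2.91 in Cd38-/-. A gene kept in this way is bound to be lower in the mutants, so its differences are description only. Afmid was the gene at an unadjusted p under 0.05 in Cd38-/-, so that count is description only too. Qprt, with means of 0.71, 3.70 and 4.49 in the same order, did not pass. Afmid had 5.79, 10.01 and 5.49 TPM in Cd38+/+, 3.82, 2.28 and 4.52 in Cd38+/-, and 1.80 to 3.48 in Cd38-/- libraries. Both mutant genotypes lay below all Cd38+/+ libraries, with differences of -1.03 (SE 0.37, q = 0.0721) and -0.82 (SE 0.55, q = 0.327), neither called. Of all genes tested, 3.62% in Cd38-/- and 6.94% in Cd38+/- lay below Cd38+/+ without overlap.

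The most abundant gene of each other group was not called either. Slc29a1, a nucleoside transporter, had a mean TPM of 115 over the 12 libraries, and Aox1, an aldehyde oxidase that oxidizes nicotinamide metabolites, had 18.6. Naxe, which epimerizes damaged NADPH hydrates for repair, had 267, and Idh2, the mitochondrial NADP-dependent isocitrate dehydrogenase, had 379. In Cd38-/- against Cd38+/+ they differed by -0.12 (q = 0.408), 0.61 (q = 0.144), -0.19 (q = 0.276) and 0.26 (q = 0.131) in this order. Singled out after its values were seen, Slc29a2 was the gene at an unadjusted p under 0.05 between the mutants, with a difference of -0.38 (q = 0.298).

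**Figure D5:**
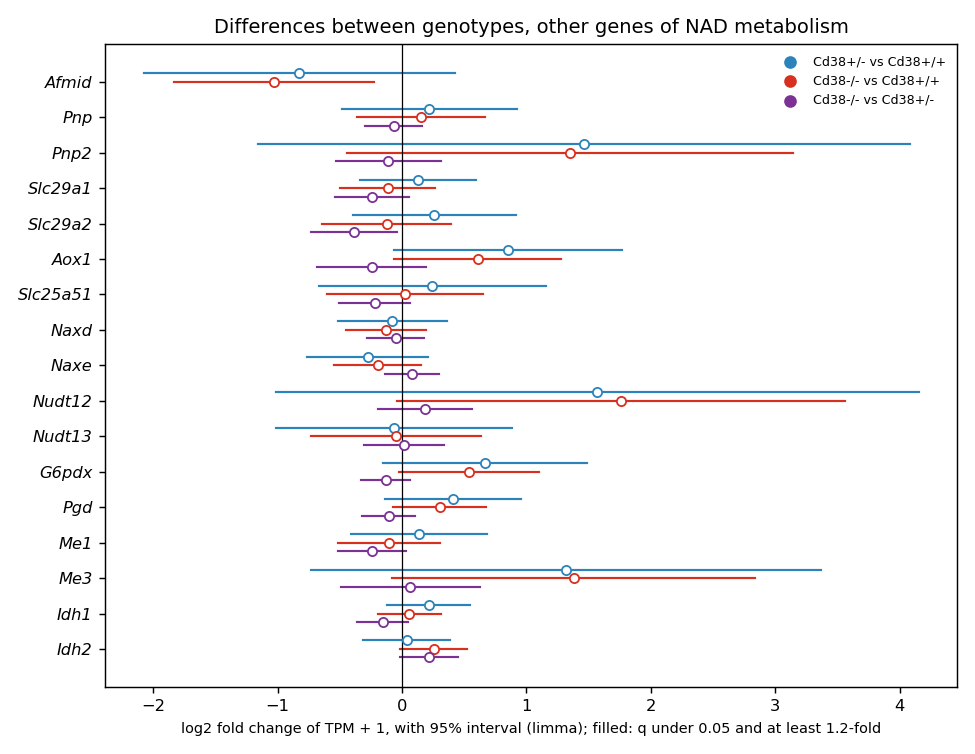
Difference in log2(TPM + 1) with its 95% limma interval for the 17 other genes of NAD metabolism above the TPM filter, in the 3 comparisons. No point is filled, since 0 of these genes were called, and Afmid at -1.03 in Cd38-/- against Cd38+/+ is the lowest. Afmid passed the filter only through its Cd38+/+ mean.

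The genes whose pattern over the 12 libraries was nearest to a member were found by the root mean square (RMS) difference of mean-centred log2(TPM + 1) among 11844 other genes. Near to Nadk2 were Mfsd1 (0.04) and Taz (0.08), where the median gene lay at 0.40. Nearest to Naprt were Gmpr (0.13), Vkorc1 (0.13) and Pmm1 (0.14), where the median gene lay at 0.50. Mfsd1 and Taz had higher mean TPM in both mutant genotypes, Mfsd1 with 31.9 in Cd38+/+, 47.9 in Cd38+/- and 43.4 in Cd38-/-. Those near Naprt had lower means in both, for example Gmpr with 107, 84.3 and 72.0. These genes were picked by their pattern over the same libraries, so the shared direction follows from the choice. This likeness is a description over libraries that share preparation and composition.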

How the data were processed

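RNA of bead-isolated astrocytes was sequenced in 12 mouse libraries. The authors trimmed reads with Trim Galore 0.6.4, mapped them to mm10 with STAR 2.7.1a and estimated expression with RSEM 1.2.28. The deposited unit is TPM per gene and library. The annotation used is not given in the sources used here. Depth is unknown, and counts were not used here. DESeq2 1.36.0 is listed in the submitters' processing notes, and its use was not given.

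Genotypes came from the sample titles. Genes whose mean TPM exceeded 5 in either genotype of a pair were fitted on log2(TPM + 1) with limma 3.58.1 (lmFit, eBayes with trend) under R 4.3.3, using only the libraries compared. The Storey q-values took lambda in steps of 0.05 from 0.05 up to 0.95. A call needed a q below 0.05 and a change of 1.2-fold or more, after the study's methods. The authors' test is not named there. Exact tests were two-sided and enumerated every permutation or sign flip. Adjusted exact p-values took the Benjamini-Hochberg adjustment of scipy 1.17.1. Positions, exons and transcript lengths came from GENCODE vM21 on GRCm38. The limma procedure was tested on simulated data.

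All 10 members were named, with Cd38, Qprt, the most abundant gene of each other group of NAD genes, and the 3 nearest patterns to the member with the highest mean TPM and to the member with the smallest p in Cd38-/- against Cd38+/+. One gene that this rule names is not reported here. The members and lists were chosen with earlier results of these data known. The alternatives were pseudocounts of 0.1 and 5, other filters, Benjamini-Hochberg adjustment, eBayes without trend, median-ratio scaling, quantile normalization, weights for library quality, removal of a length and GC trend, the replicate number as a block, a single fit of all 12 libraries and leaving out each library. Summing both Nnt rows was added after seeing the data.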

Additional observations from a re-analysis of the deposited data

How the results depend on the processing

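The order at the top held under the averages tried, where Nadk2 led Nadk (1.21 to 1.27 times) and Naprt led Nmrk1 among entry enzymes. These were the median, the mean of genotype means, and means without the Cd38+/+ libraries or without any single library. An average of the Cd38+/+ libraries alone was not among them, and there Naprt led with 109 TPM against 97.6 for Nadk2. Of 689 recomputed differences of the 11 rows, 628 kept direction and side of the threshold. Of the rest, 32 changed sign, and 0 of these were called or at an unadjusted p under 0.05. The scalings move the median of all genes in Cd38-/- against Cd38+/+ from 0.15 to 0.03 (median-ratio), 0.01 (quantile) and -0.06 (length and GC trend removed), and in Cd38+/- from 0.18 to 0.05, 0.03 and -0.04, and the cause was not tested.

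In Cd38-/- against Cd38+/+, the 2 calls among the 11 rows became 1 with Benjamini-Hochberg adjustment, eBayes without trend, median-ratio scaling or the length and GC trend removed, and 0 with library quality weights. Leaving out a library gave 0 to 4. The count over all genes went from 970 to 326 with Benjamini-Hochberg adjustment, 1 with library quality weights, 2283 without a filter, 1822 with all 12 libraries in one fit and 74 to 3119 without a library (lowest without Cd38-/- replicate 2, highest without Cd38+/+ replicate 3). In Cd38+/-, the count among the 11 rows rose from 0 to 1 (Nadk2) without a filter and with all 12 libraries in one fit, where 663 and 1464 genes were called in all, and at most 30 genes were called under the other alternatives. Between the mutants, library quality weights gave 4 of 11 rows and 3120 genes, against 0 and 4, and the cause was not tested. Among those rows is Nnt ENSMUSG00000025453, which passed the filter there only through its Cd38+/- mean. The iteration that estimates these weights stopped before reaching its tolerance in some fits, so values with quality weights are less certain than the others.

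The labels do not say whether the replicate numbers pair the libraries. Deviations of same-numbered libraries correlated between -0.317 and 0.501, and those of differently numbered libraries between -0.557 and 0.529. Same-numbered libraries were thus not more alike than others, which does not settle whether they were paired. With the replicate block, with or without the length and GC trend removed, 0 rows and 2 genes in all were called in Cd38-/- against Cd38+/+, and 306 genes between the mutants with the trend removed. Under the block, Naprt was -0.64 (q = 0.325) and Nadk2 0.44 (q = 0.375) in Cd38-/-, and Nmnat1 between the mutants was -0.035, and with the trend removed too it was -0.11. With both, Nampt was -0.074 in Cd38-/- and -0.21 in Cd38+/-, and Nnt ENSMUSG00000116207 was -0.019 in Cd38-/-.

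Other uncalled differences changed sign in single settings. Nampt was -0.080 in Cd38+/- and -0.033 in Cd38-/- with quantile normalization, -0.21 and -0.15 with the trend removed, and -0.046 between the mutants with quality weights. With the trend removed, Nmrk1 was -0.021 in Cd38-/- and Nmnat1 -0.0078 between the mutants. Nnt ENSMUSG00000025453 was 0.068 with a pseudocount of 0.1 and 0.48 with quality weights in Cd38+/-, and ENSMUSG00000116207 was 0.064 with quality weights between the mutants.

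Leaving out a library spanned 0 in these differences. In Cd38+/-, Nmnat1 ran from -0.97 to 0.15, Nmnat3 from -0.21 to 1.91, and the Nnt rows from -0.63 to 0.70 (ENSMUSG00000025453) and from -0.010 to 0.88. In Cd38-/-, Nmnat1 ran from -0.93 to 0.18, Nmnat3 from -0.26 to 1.86 and Nnt ENSMUSG00000116207 from -0.21 to 0.68. Between the mutants, Nampt ran from -0.13 to 0.16, Nmnat1 from -0.060 to 0.14, Nadsyn1 from -0.28 to 0.066 and Nmrk1 from -0.14 to 0.012. Ratio differences behaved alike: in Cd38+/- Nmnat3 to Nmnat1 ran from -0.18 to 2.88, Nadk2 to Nadk from -0.068 to 0.29, Nampt to Nmrk1 from -0.42 to 0.17 and Nampt to Nmnat1 from -0.12 to 1.21. In Cd38-/- the same ratios ran from -0.27 to 2.79, -0.14 to 0.22, -0.31 to 0.28 and -0.13 to 1.199. Between the mutants, Nmnat3 to Nmnat1 ran from -0.19 to 0.0073, Nampt to Nmrk1 from -0.020 to 0.23 and Nampt to Nmnat1 from -0.17 to 0.10. Depth is unknown, and 3 Cd38+/+ libraries limit every comparison with that genotype.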
